A study of Mus musculus with 2 samples.

Results

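The interferon receptor chains and the Janus kinases (JAKs) that transmit their signal were examined in tumour-infiltrating monocytic myeloid-derived suppressor cells (M-MDSCs), immature myeloid cells that restrain T cells in tumours. The members were the type I receptor chains Ifnar1 and Ifnar2, the type II receptor chains Ifngr1 and Ifngr2, and the kinases Jak1, Jak2, Jak3 and Tyk2. They were found as the probes whose transcript identifier belongs to 1 of these genes, which gave 11 probes of 39413 with a value on both arrays, and 8 genes of 20653 that could be named. All 8 genes had at least 1 probe, and each of the 11 was detected well above background with either diet, so none was lost to the filter on dim signals. The cells came from female BABL/c mice that carried tumours of 4T1, a mammary carcinoma line, grown from 1000000 injected cells. The mice of the NSD group ate chow with 0.4% NaCl and drank tap water, and those of the HSD group ate chow with 4% NaCl and drank water with 1% NaCl, in both cases for 16 days. Cells of the mice of a diet were mixed before RNA was extracted and hybridised to a single Cy3 array, so there was 1 array per diet on a shared slide, the spread between mice could not be measured and the diet could not be tested.

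Interferons reach the nucleus by a short route. A type I interferon such as IFN-β joins Ifnar1, which carries Tyk2, with Ifnar2, which carries Jak1. IFN-γ binds Ifngr1, which carries Jak1, and recruits Ifngr2, which carries Jak2. The kinases then phosphorylate STAT factors, and in myeloid cells this switches on antiviral genes, antigen presentation and the antimicrobial GTPases. Jak3 has no part in these receptors and works on the common gamma chain of interleukin receptors, chiefly in lymphocytes.

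The chromosomal setting of the members was uneven. Ifnar2, Ifnar1 and Ifngr2 lie on mouse chromosome 16 in a run of neighbouring genes that also holds Il10rb, a chain of the IL-10 receptor, while Ifngr1 lies on chromosome 10, Jak1 on chromosome 4, Jak2 on chromosome 19, Jak3 on chromosome 8 and Tyk2 on chromosome 9. RefSeq promoter sequences of assembly GRCm38.p6, running from 250 bases before to 50 bases after a gene's start, were matched by symbol for 8 of 8 members. The promoters of the 4 receptor chains are shown because they are the members particular to interferon, and because the chains of the IFN-γ receptor gave the widest of the 4 paired contrasts described here. Capitals mark the GC box (GGGCGG, read on both strands) and the interferon-γ activated site or GAS (TTCNNNGAA, its own reverse complement).
Ifngr1, chr10:19591699-19591998, + strand: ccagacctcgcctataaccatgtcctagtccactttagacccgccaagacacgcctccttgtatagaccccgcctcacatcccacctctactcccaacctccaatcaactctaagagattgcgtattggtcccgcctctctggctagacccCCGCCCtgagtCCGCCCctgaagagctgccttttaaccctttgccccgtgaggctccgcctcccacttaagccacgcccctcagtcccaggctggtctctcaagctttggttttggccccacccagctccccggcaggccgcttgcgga
Ifngr2, chr16:91546809-91547108, + strand: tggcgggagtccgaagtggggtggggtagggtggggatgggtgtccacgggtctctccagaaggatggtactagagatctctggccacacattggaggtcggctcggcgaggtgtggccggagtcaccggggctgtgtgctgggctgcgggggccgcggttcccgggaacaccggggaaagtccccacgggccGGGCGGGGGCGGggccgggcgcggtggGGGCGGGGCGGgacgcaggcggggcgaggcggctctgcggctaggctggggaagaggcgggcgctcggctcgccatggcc
Ifnar1, chr16:91484965-91485264, + strand: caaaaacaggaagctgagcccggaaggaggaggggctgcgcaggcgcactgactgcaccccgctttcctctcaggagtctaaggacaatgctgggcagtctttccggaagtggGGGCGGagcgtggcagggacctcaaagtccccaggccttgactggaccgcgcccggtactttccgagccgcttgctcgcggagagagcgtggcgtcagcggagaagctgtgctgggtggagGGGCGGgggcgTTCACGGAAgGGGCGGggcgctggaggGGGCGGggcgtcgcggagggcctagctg
Ifnar2, chr16:91372533-91372832, + strand: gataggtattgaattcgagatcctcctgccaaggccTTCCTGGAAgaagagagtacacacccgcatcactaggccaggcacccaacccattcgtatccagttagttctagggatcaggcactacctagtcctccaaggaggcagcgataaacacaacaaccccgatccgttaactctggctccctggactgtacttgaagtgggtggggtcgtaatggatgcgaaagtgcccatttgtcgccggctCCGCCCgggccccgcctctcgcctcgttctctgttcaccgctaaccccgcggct
A GC box was found in the promoters of 8 of 8 members and in 35.7% of 32851 promoters of the same length. There were 2 matches in Ifngr1, 4 in Ifngr2, 4 in Ifnar1 and 1 in Ifnar2. The GAS letters, a form bound by STAT dimers, stood once in Ifnar1 and once in Ifnar2 and in 8.3% of all promoters. A form of the interferon-stimulated response element, GAAA repeated after a gap of any 2 bases, was read on both strands and was present in 3.44% of all promoters and in no window of a member. These are matches of letters and were not tested for binding. The positions of the probes were not used, because the array was designed on another assembly.

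The chains of the IFN-γ receptor differed in opposite directions between the diets. The Ifngr1 probe had a processed signal of 10634 ± 1063 intensity units with NSD and 6864 ± 686 with HSD, where ± is the error that the extraction software gives for a single spot. Ifngr1 encodes the chain that binds IFN-γ, and its signal was lower in the HSD group. After each array had been set to its 75th percentile, the log2 difference (HSD minus NSD) was −0.52 ± 0.20, or 1.43-fold lower. The signal of Ifngr2, the chain that completes the receptor and carries Jak2, was 3708 ± 371 with NSD and 4555 ± 455 with HSD. Its log2 difference was 0.41 ± 0.20, or 1.33-fold higher. In the pooled cells of a diet, fewer cells of a type and less RNA per cell cannot be told apart.

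The threshold for counting a probe as different was 1.5-fold, the study's own, and neither chain reached it. The ratio of the unscaled Ifngr1 signals had a log2 value of −0.63, and with quantile normalization, cyclic loess or the authors' deposited values in place of the 75th percentile the log2 difference was −0.60, −0.63 and −0.61, past 1.5-fold. A comparison of the chains with each other does not depend on a scaling constant. Ifngr2 minus Ifngr1 was 0.93 ± 0.29 on the log2 scale of differences, a 1.90-fold shift of their ratio. It was 0.91 with normexp correction, 0.93 with quantile normalization, 0.94 with cyclic loess and 0.95 with the deposited values. The remaining settings could not change it.

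**Figure D1:**
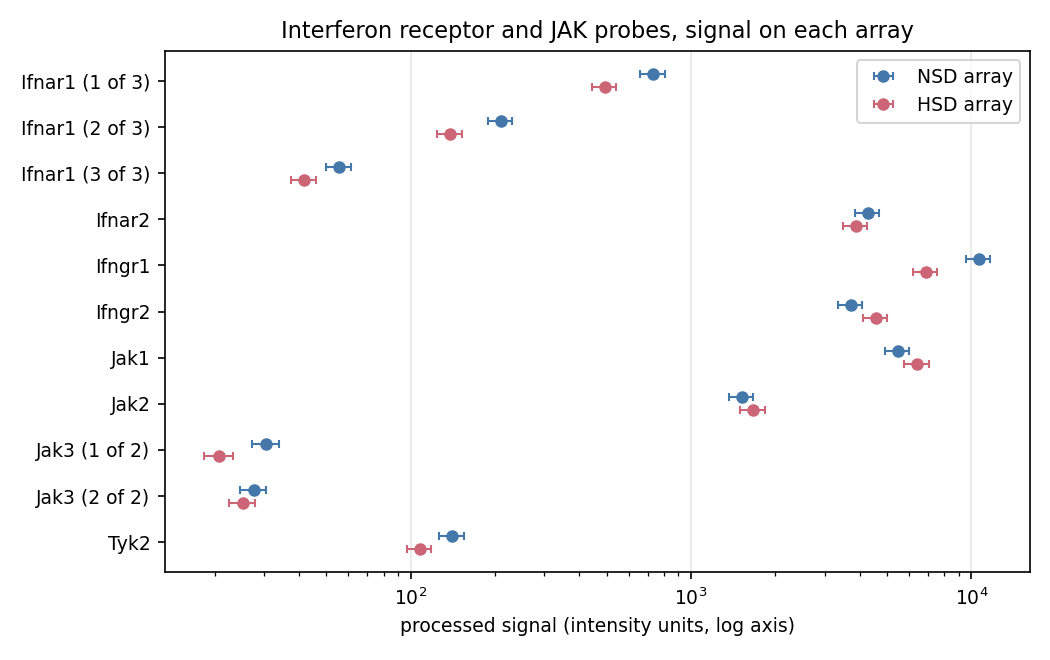
Processed signal of each of the 11 probes (x axis, intensity units, log axis) on the NSD array (blue) and the HSD array (red), with the software's error for a single spot as bars; probes of 1 gene are numbered by falling signal. All 3 probes of Ifnar1 and the probe of Ifngr1 sit lower on the HSD array, with Ifngr1 at 10634 and 6864, while Ifngr2, Jak1 and Jak2 sit higher.

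Of the type I receptor chains, Ifnar1 was lower in the HSD group on every probe and Ifnar2 was nearly level. Ifnar1 is the chain that carries Tyk2, and 3 probes measured its transcript. The brightest had signals of 734 ± 73.4 with NSD and 492 ± 49.2 with HSD, a log2 difference of −0.46 ± 0.20 or 1.38-fold lower. The second went from 209 ± 21.0 to 138 ± 13.8, a log2 difference of −0.49 ± 0.20. The dimmest went from 55.5 ± 5.64 to 41.8 ± 4.29, a log2 difference of −0.29 ± 0.21. The probes thus lay on the same side, although they share 1 RNA preparation per diet and are not replicates. Ifnar2, which binds the interferon tightly and carries Jak1, had signals of 4263 ± 426 and 3867 ± 387. Its log2 difference of −0.03 ± 0.20 was smaller than the software's error, and with normexp background correction it was 0.01. Ifnar2 minus Ifnar1 was 0.43 ± 0.29 on the log2 scale of differences.

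Among the kinases, Jak1 and Jak2 were higher and Tyk2 lower in the HSD group, each by less than 1.5-fold. Jak1 serves both types of interferon receptor and many interleukin receptors. Its signal was 5468 ± 547 with NSD and 6408 ± 641 with HSD, a log2 difference of 0.34 ± 0.20. Jak2, the partner of Jak1 at the IFN-γ receptor and the kinase of the receptors for GM-CSF and erythropoietin, went from 1518 ± 152 to 1665 ± 167, a log2 difference of 0.25 ± 0.20. With quantile normalization, cyclic loess and the deposited values the Jak2 difference was 0.17, 0.17 and 0.18, smaller than that error. Tyk2, the partner of Jak1 at the type I receptor, went from 141 ± 14.1 to 108 ± 10.8, a log2 difference of −0.27 ± 0.20. Between the partners at the type I receptor, Jak1 minus Tyk2 was 0.62 ± 0.29 on the log2 scale of differences, a 1.53-fold shift of their ratio. Between those at the type II receptor, Jak1 minus Jak2 was 0.10 ± 0.29, within the software's error. The 4 pairs of chains and kinases were set by their roles in the receptors, with the values already known.

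Jak3 was dim, and its probes differed. The probe named by transcript NM_010589 had signals of 30.5 ± 3.29 with NSD and 20.8 ± 2.41 with HSD, a log2 difference of −0.44 ± 0.23. The probe named by NM_001190830, which represents the gene because of its higher mean log2 signal, had signals of 27.5 ± 2.93 and 25.2 ± 2.71, a log2 difference of −0.01 ± 0.22. With normexp correction these differences became −0.01 and 0.16, so a direction for Jak3 was not measured. This correction adds 50 intensity units to every signal, which by construction draws the log2 differences of dim probes toward 0. Because Jak3 is chiefly a kinase of lymphocytes, markers of T and NK cells are given beside it. Of 11 such markers, 10 were detected by at least 1 array, and 7 of the 9 measured on both were lower with HSD, with a median log2 difference of −0.26 that was near 0 with normexp correction. Cd3e was the only marker of this list past 1.5-fold, at 115 and 49.8. The summed signal of the list was 2403 with NSD and 2671 with HSD because of Cd3d (1501 and 1871) and Cd4 (284 and 329). The NK cell receptor gene Ncr1 was too dim to be called on both arrays. The part of lymphocytes in the Jak3 signal was not tested.

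**Figure D2:**
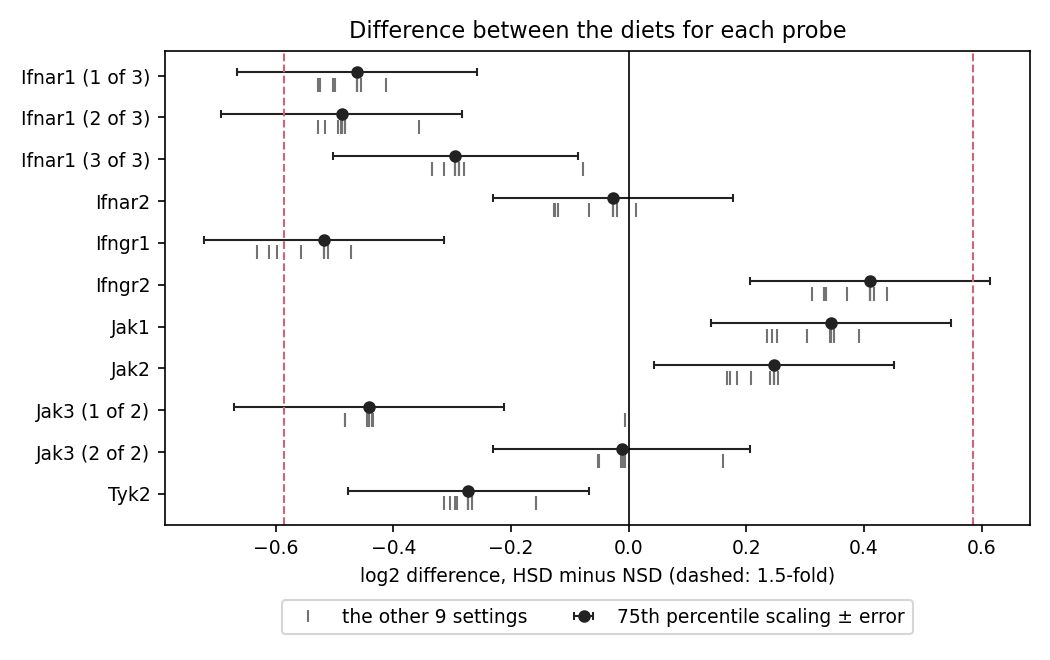
Log2 difference between the HSD and the NSD array (x axis) for each of the 11 probes after scaling to the 75th percentile (points, with the error of the difference from the software's spot errors), and under the other background corrections, scalings and filters (grey ticks); dashed lines mark 1.5-fold. No point passes a dashed line, and the Ifngr1 ticks of −0.60, −0.61 and −0.63 do.

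In all, 3 of the 11 probes had a higher and 8 a lower signal with HSD, 3 of the lower ones being of Ifnar1 and 2 of Jak3. In either direction, 0 were at least 1.5-fold different. The background was 19.1% of 29628 probes past that threshold, 10.2% being higher and 8.91% lower. The scaling moved this split, with 53.4% of the calls higher at the 75th percentile and 42.4% with cyclic loess. By genes, 3 members were higher and 5 lower, and 0 of 8 were past 1.5-fold, against 20.1% of 16332 genes. Their median log2 difference was −0.02 and their median absolute log2 difference 0.31, against 0.04 and 0.27 for all 15209 genes well above background on both arrays. An absolute difference larger than that of Ifngr1 was seen in 22.7% of these genes, and one larger than that of Ifnar1 in 27.3%. The figure was 32.1% for Ifngr2, 39.8% for Jak1, 49.3% for Tyk2, 53.2% for Jak2, 94.7% for Ifnar2 and 97.7% for Jak3. The members therefore spread over the middle of the distribution, with Ifngr1 and Ifnar1 toward its lower side.

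**Figure D3:**
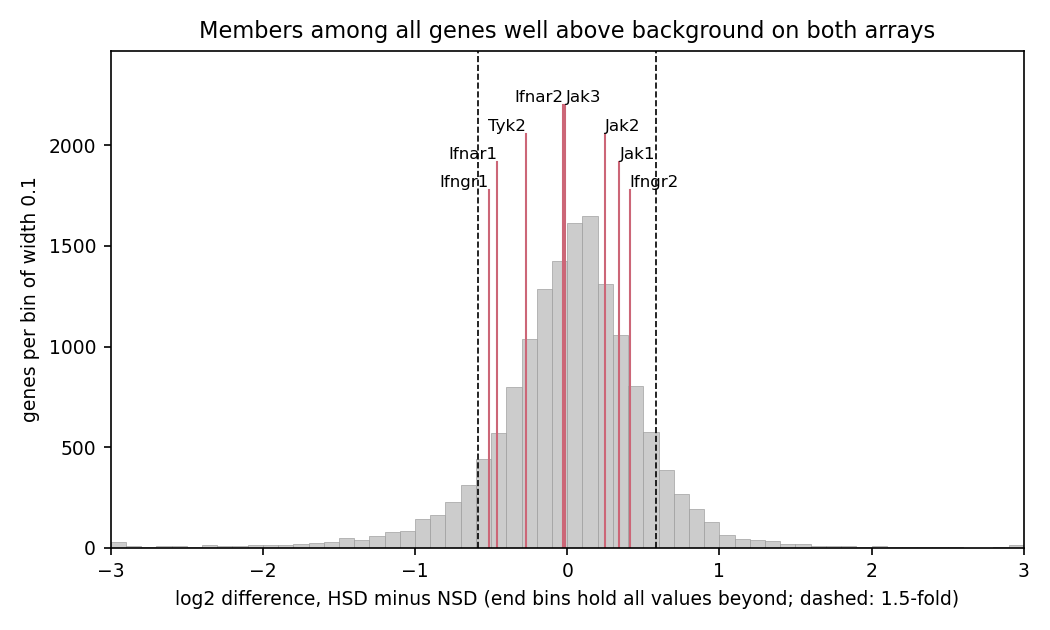
Number of genes per bin of 0.1 (y axis) by log2 difference between the HSD and the NSD array (x axis) for the 15209 genes well above background on both arrays, with the 8 members marked by red lines; dashed lines mark 1.5-fold and the end bins hold all values beyond. All 8 red lines stand between the dashed lines, from −0.52 for Ifngr1 to 0.41 for Ifngr2.

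The error of a single array bears on these values. The software's error came to between 10.0% and 11.6% of the signal for the members, close to a constant share. Of the 11 differences, 4 were more than 2 times the error of the difference, those of Ifngr1, Ifngr2 and the brighter 2 probes of Ifnar1. The smallest of these was that of Ifngr2, at 2.01 times its error of 0.20. Its difference was 0.41 at the 75th percentile. With the deposited values, quantile normalization and cyclic loess it was 0.34, 0.33 and 0.31, so the count of 4 holds for the 75th percentile. An absolute difference larger than Ifngr2's at the 75th percentile was seen in 32.1% of the 15209 genes well above background on both arrays. A second measure came from the 289 probes printed in up to 10 spots. When probes were divided into 5 groups of rising signal, the brightest group held Ifngr1, Ifngr2, Ifnar2, Jak1 and Jak2. There the median SD between spots was 0.060 on the log2 scale, which gives a difference between arrays an SD of 0.085. In the second dimmest group, which holds Jak3 and the dimmest Ifnar1 probe, that SD was 0.20. Each member probe was printed in a single spot, and both measures leave out the variation between mice and between cell preparations. In the brightest group 12.4% of the probes were past 1.5-fold between the diets and the median absolute log2 difference was 0.22.

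The neighbours of the receptor genes on chromosome 16 gave a further view. In the order of the chromosome, the log2 difference was −0.03 for Ifnar2, −0.10 for Il10rb, −0.46 for Ifnar1, 0.41 for Ifngr2 and 0.29 for Tmem50b, a membrane protein gene. Adjacent genes of this run thus lay on both sides of 0. The signal of Il10rb was 1973 with NSD and 1701 with HSD.

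The wider pathway was read from lists of 92 genes, of which 82 had a usable probe. Past 1.5-fold, 7 of them were higher (8.54%) and 10 lower (12.2%), beside 9.85% and 10.3% of all genes tested. The genes of the ligands were dim. Ifng, the gene of IFN-γ, had signals of 9.52 with NSD and 9.44 with HSD. Ifnb1, the gene of IFN-β, had 6.78 with NSD and 2.85 with HSD. The second value was not well above background, so Ifnb1 was at least 1.42-fold lower by the processed signal, whereas its log2 difference with normexp correction was 0.03 and a direction was not settled. Of 13 ligand genes that at least 1 array detected above background, 0 were past 1.5-fold in either direction, and the IFN-α genes are near-identical copies that a probe may not separate.

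Single genes of other receptors that signal through the same kinases had larger differences than the members. Those past 1.5-fold were picked out of several lists, and 20.1% of all genes tested passed it. Of 10 genes of the common gamma chain group, whose receptors use Jak1 with Jak3 or Jak2, 3 fell and 1 rose. Il7r, the IL-7 receptor chain, fell from 809 to 215 intensity units, a log2 difference of −1.80. Il15ra, which presents IL-15, fell from 1957 to 804, a log2 difference of −1.17, and Crlf2, the chain of the thymic stromal lymphopoietin receptor, fell from 8513 to 5065, a log2 difference of −0.63. Il2rb rose from 15.9 to 27.3, a log2 difference of 0.89, or 0.24 with normexp correction. The common gamma chain itself, Il2rg, to which Jak3 binds, had signals of 360 and 393, a log2 difference of 0.24.

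Of 5 genes of the common beta chain group, which use Jak2, Il3ra fell from 271 to 158, a log2 difference of −0.66. Csf2rb, the shared chain of the GM-CSF, IL-3 and IL-5 receptors, had signals of 8475 and 11533, a log2 difference of 0.56 or 1.47-fold. Its other probe gave 0.22. Of 7 gp130 receptor genes, Il6st, which encodes gp130, fell from 50.9 to 24.0, a log2 difference of −0.97 that was −0.20 with normexp correction, and Osmr rose from 6.73 to 9.71, a log2 difference of 0.64 that was 0.17 with it. Of 6 homodimeric receptors, Ghr fell from 52.2 to 29.0, a log2 difference of −0.73 that was −0.29 with normexp correction. The log2 differences of the IL-12 receptor chains Il12rb1 and Il12rb2 were −0.06 and −0.02, and Il23r was too dim to be called on both. The other probe of Il12rb1 gave 0.38. Of 6 other class II chains, the family of the interferon receptors, Il20rb rose from 25.1 to 40.5, a log2 difference of 0.80 that was 0.23 with normexp correction.

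Downstream of the kinases, the list of STAT factors and Irf9 had a median log2 difference of −0.28, or −0.07 with normexp correction. Stat2, which the type I receptor activates, fell from 4127 to 2081, a log2 difference of −0.87, and Irf9, its DNA-binding partner, from 5517 to 2616, a log2 difference of −0.96. Of the feedback inhibitors, Socs3 rose from 1515 to 4177, a log2 difference of 1.58, Socs1 had signals of 240 and 169, a log2 difference of −0.39, and no other gene of the 8 on that list was past 1.5-fold. Usp18, which displaces Jak1 from Ifnar2 and is itself induced by interferon, fell from 2220 to 358, a log2 difference of −2.52. Pias1, an inhibitor of STAT binding, rose from 1096 to 1681 on its brightest probe, a log2 difference of 0.73, and its 3 probes lay between 0.17 and 0.73. The phosphatases Ptpn6 and Ptpn2, which remove phosphate from JAKs, had log2 differences of 0.45 and 0.14. The 3 probes of Ptpn2 lay between 0.14 and 0.46. Of 6 adaptors, Sh2b2 and Stam, which bind JAKs, rose. Sh2b2 went from 590 to 990, a log2 difference of 0.86. Stam went from 66.8 to 97.4 on its brightest probe, a log2 difference of 0.66 that was 0.41, under 1.5-fold, with normexp correction. The other probe of Stam gave 0.46.

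Genes listed as induced by interferon stood apart from the receptors, although the lists were chosen with earlier results of these data known. Among all genes tested, 10.3% were at least 1.5-fold lower and 9.85% higher. Of 17 genes induced by type I interferon, 17 fell, with a median log2 difference of −2.71, or −2.11 with normexp correction. The type I receptor chains Ifnar1 and Ifnar2 had log2 differences of −0.46 and −0.03. Their kinases Tyk2 and Jak1 had −0.27 and 0.34. Ifit3, an antiviral gene, fell from 5648 to 337, and Isg15, which encodes a ubiquitin-like modifier, from 6891 to 1256. Of 17 genes induced by IFN-γ, 8 fell and 3 rose, with a median log2 difference of −0.58. Among them Igtp, an antimicrobial GTPase, fell from 2812 to 868, and Nos2 rose from 22.8 to 185, a log2 difference of 3.13 that was 1.6 with normexp correction. The other genes of this list that rose, Tgtp1 and Cxcl9, had log2 differences of 0.67 and 1.06, and of 0.30 and 0.22 with normexp correction. Many of these genes answer both types of interferon. Arrays measure transcripts, and receptor protein, surface level and phosphorylation were not analysed here.

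**Figure D4:**
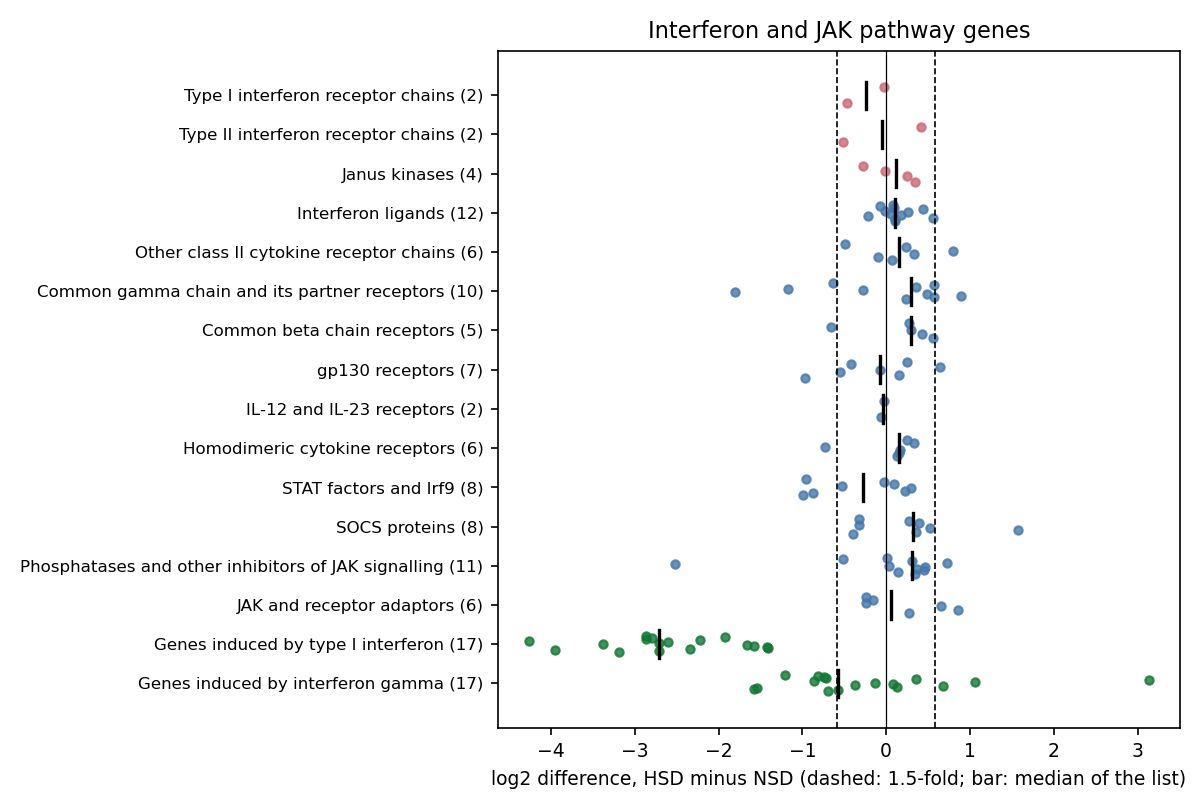
Log2 difference between the HSD and the NSD array (x axis) for genes well above background on both arrays, by list with the number of genes in parentheses; red points are the members, blue points other pathway genes, green points genes induced by interferon, and black bars list medians. The members stay between the dashed lines of 1.5-fold, and all 17 green points of the type I list lie at −1.41, the value of Oas1a, or below.

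The labelled cell type was checked against markers. Of 8 monocyte markers 7 had a probe, all well above background, among them Itgam (31564 with NSD and 31043 with HSD), Ly6c1 (51811 and 48478) and Csf1r (11343 and 8112), none of them past 1.5-fold. Of the others Ccr2 fell, with a log2 difference of −0.78, and Cd14 and Cx3cr1 rose, with 0.82 and 0.78. Neutrophil genes were also bright, with 7 of 8 measured and a summed signal of 234395 and 225241, and of these Mpo fell from 3536 to 1723, a log2 difference of −0.92. All 6 of 6 B cell markers were well above background, with sums of 7079 and 7965. Of the macrophage markers, 6 of 8 were at least 1.5-fold lower on the HSD array, beside 10.3% of all genes tested. The sums of this list were 11092 and 5137, and its median log2 difference was −2.31, or −1.01 with normexp correction. Mrc1 went from 134 to 5.49, a log2 difference of −4.50 that was −1.56 with normexp correction, and Trem2 from 3348 to 669. C1qa, which was too dim with HSD, had a log2 difference of −0.07 with normexp correction. Adgre1, the brightest of the list, went from 6723 to 4252, under 1.5-fold, and C1qb rose from 50.4 to 58.4. The part of macrophages in the lower signals of Ifngr1 and Ifnar1 was not tested. Carcinoma markers were dim, with sums of 114 and 120, yet 3 of 5 usable ones passed 1.5-fold upward, beside 9.85% of all genes tested. These were Epcam (0.70), Krt8 (0.61) and Krt18 (0.76), with a list median of 0.61, or 0.17 with normexp correction. Fibroblast markers were dim too, with sums of 143 and 111, and 2 of 4 passed 1.5-fold downward, beside 10.3% of all genes tested. These were Col3a1 (−1.09) and Dcn (−0.80), with a list median of −0.68, or −0.04 with normexp correction. Endothelial markers summed to 264 and 288, with 0 past 1.5-fold. Dendritic cell markers summed to 14557 and 13984, of which Siglech gave 13705 and 13214. Among them 1 was higher, Clec9a (6.93 and 11.1), and 1 lower, Cd209a, which was too dim with HSD. With normexp correction their log2 differences were 0.23 and −0.24. Erythroid markers summed to 28102 and 24739, with 1 lower, Hbb-bs (−0.66, or −0.47 with normexp correction). The part of these cells in the members' values was not tested.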

How the data were processed

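RNA of M-MDSCs pooled by diet was measured on 1 Agilent array per diet. The authors deposited each array's scanner output, whose processed signals are intensity values from Feature Extraction 11.0.1.1 after subtraction of background and of a spatial trend, each with its error. They also deposited normalized log2 values made in GeneSpring. The columns of these have medians of 4.61 and 4.61 and sorted values equal to within 0.0021 above the floor, and the method is not named in the text. They were used only as an alternative.

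Control spots were left out, as were outlier spots (162 with NSD, 179 with HSD), spots of a probe were averaged on the log2 scale, and each array's 75th percentile was subtracted, 252 and 233 intensity units. Of the probes, 71.9% and 72.4% were well above background and no spot was saturated. A probe well above background on 1 array gave a bound. For this, the dim signal was replaced by the lowest signal well above background on that array where this was higher. Transcript identifiers were matched without versions to RefSeq (GRCm38.p6), which named 69.1% of the probes. Probes under other identifiers were not analysed here. A gene was represented by its probe with the highest mean log2 signal, and all member probes are given. Of the pathway lists, genes past 1.5-fold and a fixed set are named, except for an item not reported here; other genes were chosen after their values were seen. The error of a log2 difference combines the software's errors of both spots. The members and lists were chosen with earlier results of these data known. The fold and count step was tested on simulated data. With 1 array per diet no test was run, and precision is limited by the number of arrays. Alternatives were normexp correction (offset 50, on the median signal of each spot), 4 other scalings, the deposited values, both filters on dim probes, outlier spots kept, a 2-fold threshold and the median over a gene's probes. Python 3.11.15, numpy 2.4.6, pandas 2.3.3, matplotlib 3.10.9, R 4.3.3 and limma 3.58.1 were used.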

Additional observations from a re-analysis of the deposited data

How the results depend on the processing

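No member probe was at least 1.5-fold higher under any setting tried. At least 1.5-fold lower were 0 probes at the 75th percentile and 1 probe, that of Ifngr1, with quantile normalization, 1 with cyclic loess and 1 with the deposited values, for which the cause was not tested. The median log2 difference over the 8 genes lay between −0.13 and 0.09. Ifnar1 (−0.53 to −0.41), Ifngr1 (−0.63 to −0.47), Ifngr2 (0.31 to 0.44), Jak1 (0.24 to 0.39), Jak2 (0.17 to 0.25) and Tyk2 (−0.31 to −0.16) kept their direction under all 11 settings, and Ifnar2 and Jak3 did not with normexp correction. Over all probes, 3030 were at least 1.5-fold higher and 2639 lower. These counts were 961 and 923 with normexp correction, 6010 and 3757 without a filter on dim probes, and 793 and 1039 past 2-fold. A stricter threshold lowers such counts by definition, and leaving out the filter lets dim probes be counted. The offset of the normexp correction draws the log2 differences of dim probes toward 0 by construction. Other causes were not tested. No paired analysis was possible because each diet has 1 array. Dim signals limit the ligands, Jak3 and Il6st.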
